A study of Mus musculus with 2 samples.

Results

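Strong distal sites in unique sequence are stretches of accessible chromatin that lie away from annotated promoters and mostly outside repeats, and 8556 of them were found in the kidney of newborn mice. They were selected on the signal that the authors deposited for each DNase-seq peak. A site was kept when peaks of both replicates overlapped on an autosome, its centre lay over 1 kb from every transcription start site (TSS) of GENCODE M21, its signal was at least 60 and at most 300 in both replicates, and under 50% of its bases were soft-masked as repeats. These sites were 4.40% of the 194662 shared autosomal sites and 5.91% of the 144724 distal shared sites under the same masking limit. Both libraries were made from kidney tissue of B6NCrl mice of age 0 days, without any treatment or altered allele in the labels, so the study holds 1 group of 2 replicates. The labels call them biological replicates from separate tissue records of 1 donor record, do not say whether they were separate animals, and leave the sex uncollected. Their spread may therefore be technical. With 1 group there is no contrast between conditions to test, and every value here is a description. A kidney is a mixture of cells, and more cells with an open site cannot be told apart from wider opening of that site in each cell.

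DNase I is an endonuclease that cuts DNA where nucleosomes are displaced, and sites it cuts often are called hypersensitive. Away from promoters such sites are mostly enhancers, which bind tissue-specific transcription factors and act on genes at a distance, or insulators. Insulators in mammals are bound by CTCF, a zinc-finger protein that reads a long, directional DNA word and stops the cohesin complex as it extrudes chromatin loops. CTCF sites are shared by most tissues, and pairs whose words point towards each other tend to lie at the bases of loops.

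The exact CTCF core, a word of 12 positions of which 4 allow 2 bases each, lay in the central 150 bp of 1288 of the 8556 sites (15.1%, exact 95% binomial interval 14.3 to 15.8). The 6 strongest such sites that lie outside exons and on chromosomes whose sequence is printed are given here to show what the core looks like in place, 5′ to 3′ on the strand of the core, with the core in capitals and named by the nearest gene. Coordinates are those of mm10.
Stard10, chr7:101310776-101310815, plus strand: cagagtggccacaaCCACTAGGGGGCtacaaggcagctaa
Bcan, chr3:87987130-87987169, minus strand: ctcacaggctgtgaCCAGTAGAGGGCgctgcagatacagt
Snora41, chr1:63181149-63181188, plus strand: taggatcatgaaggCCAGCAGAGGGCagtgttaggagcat
Zfp286, chr11:62756900-62756939, plus strand: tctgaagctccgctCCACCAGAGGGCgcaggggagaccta
Tex44, chr1:86440658-86440697, plus strand: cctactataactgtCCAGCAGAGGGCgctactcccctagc
Gm12396, chr4:40773322-40773361, plus strand: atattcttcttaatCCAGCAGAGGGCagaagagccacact
Signals in replicates 1 and 2 were 185 and 235 at the Stard10 site, 184 and 195 at the Bcan site and 177 and 188 at the Snora41 site. They were 169 and 195 at the Zfp286 site, 171 and 191 at the Tex44 site and 178 and 184 at the Gm12396 site. All 6 were higher in replicate 2, and the site nearest Zfp286 is intronic while the others are intergenic. RefSeq starts lay within 1 kb of 3 of them, at 146 bp (Zfp286os), 809 bp (Gm32700, at the Tex44 site) and 400 bp (Gm34213, at the Gm12396 site). Among the forms of the core, CCAGCAGAGGGC was the most common in the strong sites, in 137 of 1288 (10.6%), and all 16 forms that the consensus allows occurred. The same form made up 10.2% of cores in the next strongest distal sites and 12.5% in weaker ones.

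Beside CTCF, the 4 motifs whose share among the strong sites exceeded that among weaker distal sites the most were YY1, NRF1, EGR and SP/KLF. These are words of factors that are best known from promoters. YY1 is a zinc-finger protein, NRF1 drives genes of respiration, EGR proteins are immediate early zinc-finger factors, and SP and KLF proteins bind GC boxes. The strongest site with each word is shown with the word in capitals.
Mtfp1, chr11:4096760-4096800, plus strand: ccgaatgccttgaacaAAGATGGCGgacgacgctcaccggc
Kcnn1, chr8:70865734-70865774, plus strand: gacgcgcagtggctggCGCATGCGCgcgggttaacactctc
Ccne1, chr7:38084926-38084966, minus strand: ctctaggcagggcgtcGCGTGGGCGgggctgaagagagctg
Zfp395, chr14:65343878-65343917, plus strand: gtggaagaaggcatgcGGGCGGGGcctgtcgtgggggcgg
From first to last these hold the YY1 word AAGATGGCG, the NRF1 word CGCATGCGC, the EGR word GCGTGGGCG and the SP/KLF word GGGCGGGG. Signals in replicates 1 and 2 were 212 and 244 at the Mtfp1 site, 230 and 251 at the Kcnn1 site, 210 and 278 at the Ccne1 site and 239 and 292 at the Zfp395 site. Each lies in a window of 1000 bp whose ratio of observed to expected CpG was over 0.6, a level that marks CpG-rich DNA such as promoters. The Kcnn1 site lies 2558 bp from the nearest GENCODE start but 125 bp from a RefSeq start of the same gene.

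Of the strong sites, 4050 (47.3%) held none of the 31 motifs searched. The central 150 bases of the 2 strongest of these outside exons are printed, on the plus strand, to show strong sites without any word of the list.
Trappc9, chr15:73067511-73067660, plus strand: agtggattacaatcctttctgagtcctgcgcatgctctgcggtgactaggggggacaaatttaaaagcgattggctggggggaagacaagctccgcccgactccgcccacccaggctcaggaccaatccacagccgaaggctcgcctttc
Rpl30-ps6, chr1:86487411-86487560, plus strand: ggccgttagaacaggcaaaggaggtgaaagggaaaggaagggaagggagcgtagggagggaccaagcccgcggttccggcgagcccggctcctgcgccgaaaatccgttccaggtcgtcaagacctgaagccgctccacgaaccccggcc
The first, 6382 bp from the nearest start of Trappc9, had signals of 251 and 297, and the second, 13827 bp from the pseudogene Rpl30-ps6, had 231 and 280. Both are intergenic, and their 36-base words occur once in the genome, and both are CpG-rich, with observed over expected ratios of 0.610 and 0.979. No match says only that the exact words searched are not in these windows.

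The CTCF core was concentrated at the centres of the strong sites and was about as common in the next strongest distal sites. The next tier holds the 8556 unique distal sites with the highest lower signal among those that missed 60 in a replicate (lower signal 44.8 to 59.98), and 14.01% of them held a core (interval 13.3 to 14.8). The intervals for the strong sites and the next tier overlap, and the strong sites had the higher share on 13 of 19 autosomes. Among the other 127588 weaker distal sites 2.43% held a core, and the strong sites exceeded them on 19 of 19 autosomes. By autosome the share ran from 12.7% to 17.5% in the strong sites and from 1.76% to 2.96% in the weaker ones. Strong promoter sites in unique sequence held a core in 2.26% of 12387 cases, the 81 strong distal sites with at least 50% masked bases in 2.47%, and all shared sites in 3.33%. The flanks, which are 17112 windows of 150 bp whose centres lie 500 bp from those of the strong sites, held a core in 0.134%. Of the single cores, 61.6% lay within 25 bp of the centre, and 641 core-bearing sites read on the plus strand against 645 on the minus strand. Applied to 1 replicate at a time, the rule gave 14.9% ± 2.74 (SD, n = 2). The exact core is a strict criterion: with 1 mismatch allowed 36.7% of the strong sites matched, and with a weight matrix learned from 4415 core-bearing distal sites outside the strong set 35.6% did, against 32.8% of the next tier and 7.52% of weaker sites by the same matrix.

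**Figure D1:**
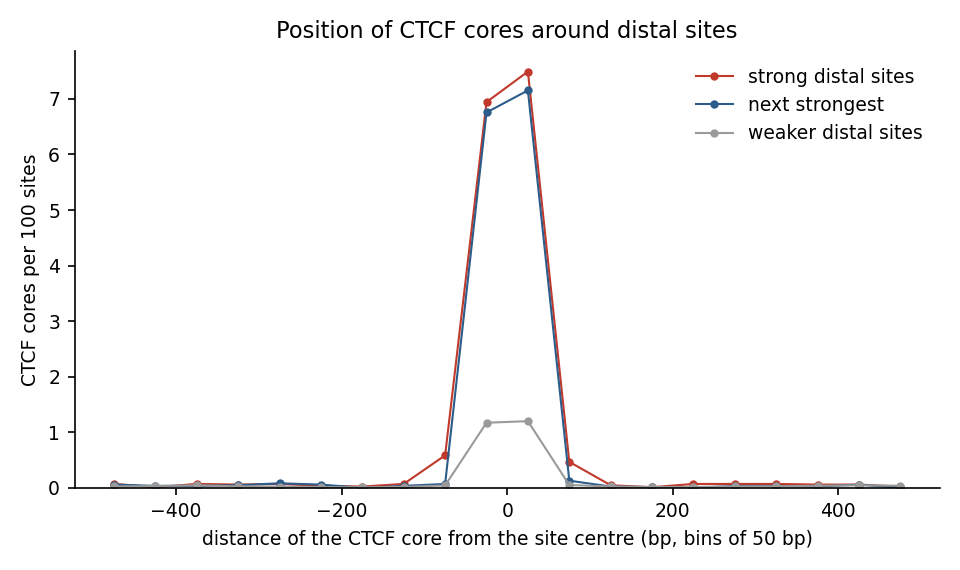
CTCF cores per 100 sites in bins of 50 bp (vertical axis) against the distance of the core from the site centre in bp (horizontal axis), for strong distal sites, the next strongest and weaker ones. Strong sites peak at 7.49 cores per 100 sites in the bin just after the centre and lie under 0.1 beyond 100 bp.

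Across signal, the CTCF share rose and then fell within the range of the strong sites, while CpG-rich DNA became more common. The share with a core was 0.343% where the lower signal was under 10 and 7.10% from 30 to 40. It was 15.2% from 60 to 70 (interval 13.9 to 16.5) and 17.1% from 70 to 80 (interval 15.5 to 18.9). From 100 to 120 it was 11.7% and from 160 to 300 5.18% (interval 2.51 to 9.32, 193 sites). The CpG-rich share moved from 0.932% under 10 to 3.64% from 60 to 70, 16.9% from 120 to 160 and 35.2% (interval 28.5 to 42.4) from 160 to 300. Sites within 1 kb of a RefSeq start, which the GENCODE limit does not remove, made up 5.42% of sites from 60 to 70 and 17.6% from 160 to 300. Of the 553 CpG-rich strong sites (6.46%), 185 (33.5%) lay within 1 kb of a RefSeq start, against 452 (5.65%) of the 8003 others. CpG-rich sites were 2.43% of the next tier and 73.0% of strong promoter sites, and their share in the strong sites exceeded that in the next tier on 19 of 19 autosomes. CpG-rich DNA and CTCF cores seldom met: 23 of 1288 core-bearing strong sites (1.79%) were CpG-rich, against 530 of 7268 others (7.29%). Signal chose the members, so the order over bins is a description.

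**Figure D2:**
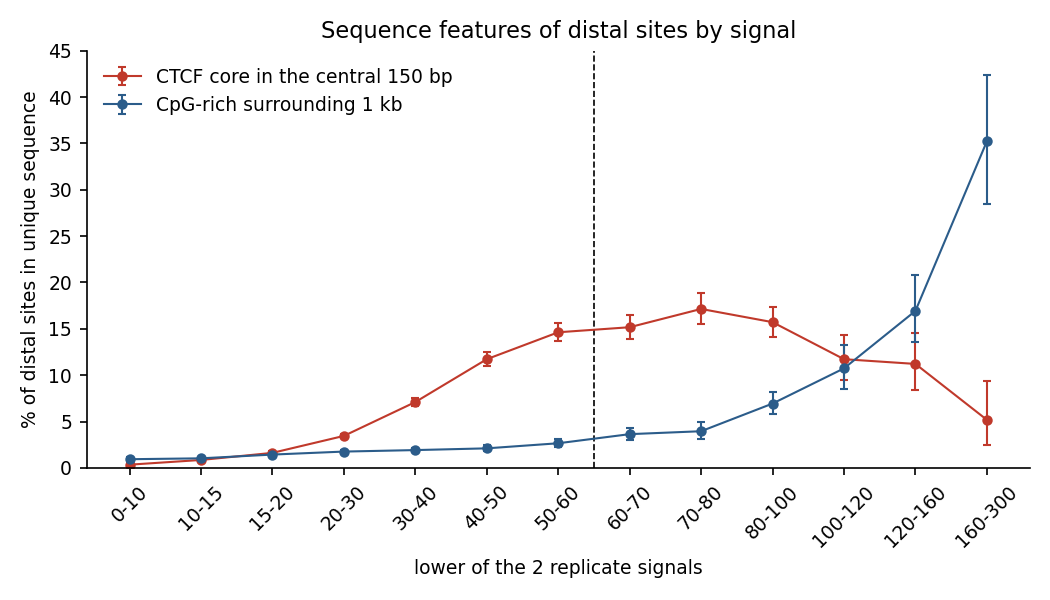
Percent of distal sites in unique sequence with a CTCF core or with a CpG-rich surrounding 1 kb (vertical axis, bars are exact 95% binomial intervals) in bins of the lower replicate signal (horizontal axis). Strong sites lie to the right of the dashed line at 60, where the CTCF share falls from 17.1% to 5.18% as the CpG-rich share rises to 35.2%.

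Words common at promoters were found more often in strong sites than in weaker distal ones. The SP/KLF word was in 3.88% of strong sites and 1.41% of weaker ones, and the YY1 word in 0.432% and 0.0862%. For the NRF1 word it was 0.374% and 0.0792%, and for the EGR word 0.234% and 0.0556%. The next tier held SP/KLF in 2.33%, YY1 in 0.386%, NRF1 in 0.222% and EGR in 0.0935%. The YY1 share of the strong sites was thus close to that of the next tier. All 4 were more common still in strong promoter sites, where SP/KLF reached 24.9% and NRF1 3.13%. Most words of factors of kidney cells were less common in strong sites than in weaker ones, while WT1 was about equal and GRHL more common. Beside the flanks they did not share a direction. The PAX2/8 word was in 0.140% of strong sites and 0.156% of weaker ones, and the posterior HOX word in 2.97% and 3.61%. For GATA it was 1.04% and 1.83%, and for TCF/LEF 1.93% and 2.70%. HNF1, a homeodomain factor of proximal tubules, had its word TTAATNATT in 0.538% of strong sites, 0.783% of the next tier, 1.5% of weaker sites and 0.812% of flanks. The word CAAAGTCCA of HNF4, a nuclear receptor of proximal tubules, was in 0.257% of strong sites, 0.379% of weaker ones and 0.158% of flanks. For Six2, which holds nephron progenitors in renewal, the word TCANGTTTC was in 1.05% of strong sites, 1.25% of weaker ones and 0.660% of flanks. The WT1 word GCGTGGGAG, of the zinc-finger factor of podocytes, was in 0.292%, 0.288% and 0.0760%. The word AACCGGTT of GRHL proteins, grainyhead-like factors of epithelia such as the collecting duct, was in 16 strong sites (0.187%), 4 sites of the next tier (0.0468%), 0.0721% of weaker sites and 0.0993% of flanks. The AP-1 word TGANTCA, bound by FOS and JUN dimers, was in 4.87% of strong sites and 7.15% of weaker ones. The E-box CAGCTG was the most frequent word, in 16.5% of strong sites, 16.2% of weaker ones and 7.83% of flanks. The median GC content was 52% in strong sites, 50% in the next tier, 48% in weaker sites and 64% in strong promoter sites, and its part in these shares was not tested. The EGR and WT1 words share GCGTGGG, and a match to either is a description, not a bound site.

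In position, strong sites were more often intergenic and lay closer to a TSS than weaker ones did. Of the 8556, 4303 (50.3%) were intergenic, 3769 (44.1%) intronic and 484 (5.66%) had their centre in an exon. Intergenic sites made up 45.7% of the next tier and 41.0% of weaker distal sites, and the strong sites had the higher intergenic share on 16 and 19 of 19 autosomes respectively. Their median distance to a TSS was 9143.5 bp, against 10888.5 bp in the next tier and 12687 bp in weaker sites. Counting protein-coding genes only, it was 16044.5 bp. From 1 to 5 kb lay 2795 sites (32.7%), from 5 to 50 kb 5074 (59.3%), and beyond 50 kb 687 (8.03%), the farthest at 454130 bp. The nearest TSS belonged to a protein-coding gene for 4857 sites (56.8%), to a lincRNA for 1154 (13.5%) and to a processed pseudogene for 946 (11.1%).

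The strong sites were unevenly spaced. The median gap between neighbours was 78980 bp, with quartiles of 20970 and 235410 bp. The next tier, with the same number of sites, had a median of 108900 bp, and its median gap was wider on 19 of 19 autosomes. Gaps under 1 kb made up 5.05% of gaps in the strong sites and 2.39% in the next tier, and gaps over 1 Mb 5.93% and 5.06%. The closest pair, at chr6:86585141-86585310 and chr6:86585321-86585490 near Gm44369, had centres 180 bp apart and signals of 83.5 and 92.9 in replicate 1 and of 89.7 and 95.2 in replicate 2. The widest gap was 11914750 bp on chromosome 1, between an intergenic site near Pdcd1 and an intronic one near Zcchc2. Chromosome 11 held the most members (730, or 5.98 per Mb) against 2.54 to 5.98 per Mb over the autosomes, and 5.43% of its shared sites were strong distal sites, against a range of 3.77% to 5.43%. Each strong site had a median of 4 other shared sites within 10 kb, against 3 for the next tier.

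Linking neighbours up to 12.5 kb apart, 5839 sites stood alone and 2717 (31.8%) fell into 1119 runs of 2 or more, of which 40 held at least 5. The following runs were picked after their values were seen. At the microRNA gene Mir148a, 8 sites in 10570 bp (chr6:51168161-51178730) had signals between 64.6 and 241 in replicate 1 and between 61.3 and 263 in replicate 2. Near Kdm6b, which encodes an H3K27 demethylase, 7 sites in 10410 bp (chr11:69408661-69419070) had 87.1 to 245 and 89.6 to 257. Near Msl1, which encodes a subunit of a histone acetyltransferase complex, 8 sites in 15150 bp had 67.3 to 172 and 70.4 to 198. None of the sites at Kdm6b or Msl1 and 1 at Mir148a held a CTCF core.

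Neighbouring CTCF cores among the strong sites were convergent and divergent in near-equal numbers over all distances, but not at short range. Of 1267 neighbouring pairs of core-bearing sites, 332 (26.2%) were convergent, with the cores pointing at each other, 325 (25.7%) divergent and 610 (48.1%) tandem. Pairs were formed within the set, with a median gap of 684 kb, so core-bearing sites outside it can lie between them. Adjacent pairs share a site, which the intervals do not account for. Under 50 kb, 12 of 72 pairs were convergent (16.7%, interval 8.92 to 27.3) and 29 divergent (40.3%, interval 28.9 to 52.5). From 200 to 500 kb, 72 of 266 were convergent (27.1%, interval 21.8 to 32.8) and 52 divergent (19.5%, interval 14.96 to 24.8). In the next tier, whose sites are others, 8 of 75 pairs under 50 kb were convergent (10.7%, interval 4.72 to 19.9) and 26 divergent (34.7%, interval 24.0 to 46.5). The matrix gave 70 convergent and 168 divergent of 448 strong pairs under 50 kb (15.6% and 37.5%). The order convergent under divergent at short range thus appeared in both sets and under both ways of finding the core. From 200 to 500 kb the intervals of both shares overlapped for the exact core but not for the matrix, which gave 221 convergent of 749 strong pairs (29.5%, interval 26.3 to 32.9) and 163 divergent (21.8%, interval 18.9 to 24.9). In the next tier the intervals overlapped at that distance by both ways, with 63 convergent and 51 divergent of 208 pairs by the exact core.

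**Figure D3:**
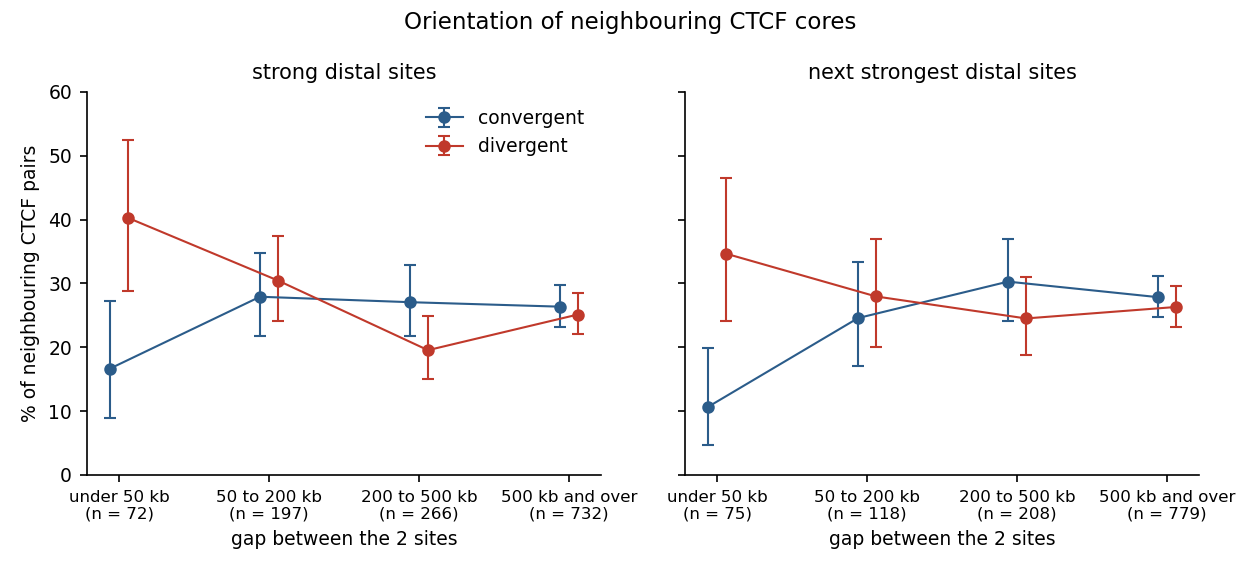
Percent of neighbouring CTCF pairs that were convergent or divergent (vertical axis, bars are exact 95% binomial intervals) by the gap between the pair (horizontal axis), for strong distal sites and the next strongest. Under 50 kb the divergent share, 40.3% and 34.7%, lies above the convergent share, 16.7% and 10.7%.

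Signals of the replicates lay close together at these sites, under a rule that limits both. Median signal was 78.7 in replicate 1 (range 60 to 261) and 81.9 in replicate 2 (60 to 297), against medians of 17.1 and 16.9 over all autosomal peaks. The log2 ratio of replicate 1 to replicate 2 had a median of -0.06 and an SD of 0.21, and 8486 sites (99.2%) lay within 1.5-fold. Replicate 1 was over 1.5-fold higher at 8 sites and replicate 2 at 62. Among all distal unique shared sites those shares were 7.15% and 3.27%, but the rule bounds both signals, so the counts are not read against them. Selecting on 1 replicate leaves the other free. The rule on replicate 1 alone gave 10529 sites, of which 10461 (99.4%) had a peak in replicate 2, with a median signal there of 76.7 against 74.8 in replicate 1, and 8570 (81.4%) reached 60. The rule on replicate 2 alone gave 10815 sites, of which 10761 (99.5%) had a peak in replicate 1, with a median of 73.3 there against 76.8, and 8549 (79.0%) reached 60. Just inside the lower limit were sites near Cdc37 (61.9 and 60), Gm25558 (60 and 66.7) and 4930545L08Rik (60 and 65.0), and just outside it sites near D7Ertd443e (65.6 and 59.98), Ggt6 (59.98 and 70.3) and Gm4366 (59.98 and 66.9). At the upper limit, sites near Trappc9, Zfp503 and Zfp395 reached 297, 293 and 292 in replicate 2, and sites near Fos, Chd3 and Gm44436 fell outside with 300.1, 305 and 305.

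**Figure D4:**
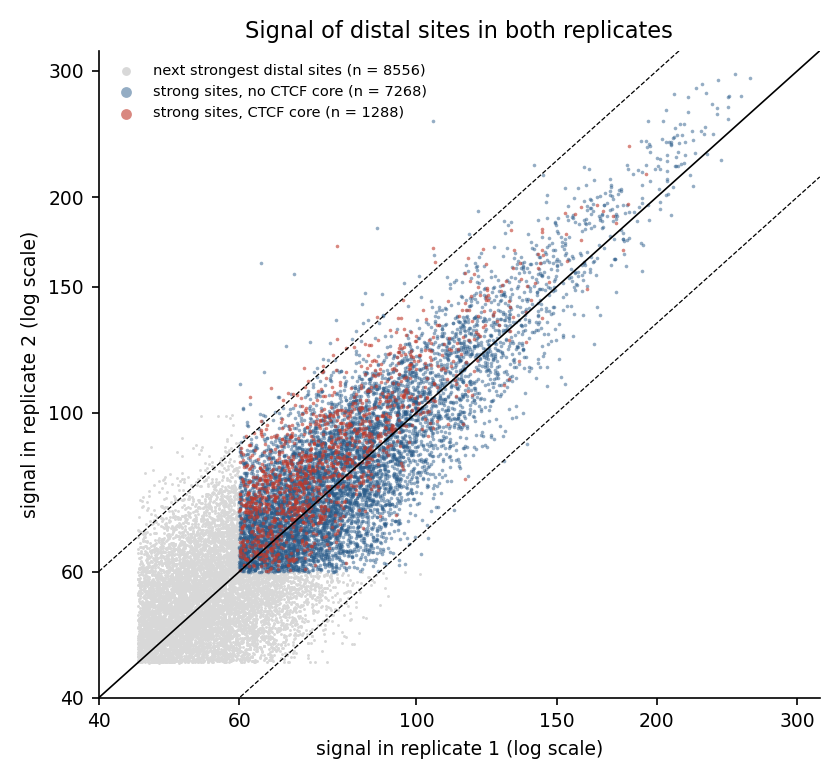
Signal in replicate 2 (vertical axis, log scale) against replicate 1 (horizontal axis, log scale), 1 point per site, with the line of equality and dashed lines at 1.5-fold. Strong sites with a CTCF core lie above the line more often (80.9% of 1288) than those without (57.4% of 7268).

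The small difference between replicates was larger at strong sites with a CTCF core than at those without, but it was not particular to the core. Strong sites with a core had median signals of 74.8 and 84.7, and those without had 79.4 and 81.5. Replicate 2 was the higher at 1042 of 1288 core-bearing sites (80.9%) and at 4175 of 7268 others (57.4%). The median log2 ratio was -0.16 with a core and -0.04 without, and the order held on 19 of 19 autosomes, where medians ran from -0.22 to -0.11 with a core and from -0.09 to -0.01 without. The next tier gave -0.16 and 0.00, and weaker sites -0.14 and 0.07. CpG-rich strong sites had -0.13, against -0.05 for the others. Strong promoter sites, of which 2.26% held a core, also had -0.13. Strong sites over transfer RNA genes, of which 1 of 56 held a core, had -0.17. Over single sites the SD of the log2 ratio was 0.19 with a core and 0.21 without.

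**Figure D5:**
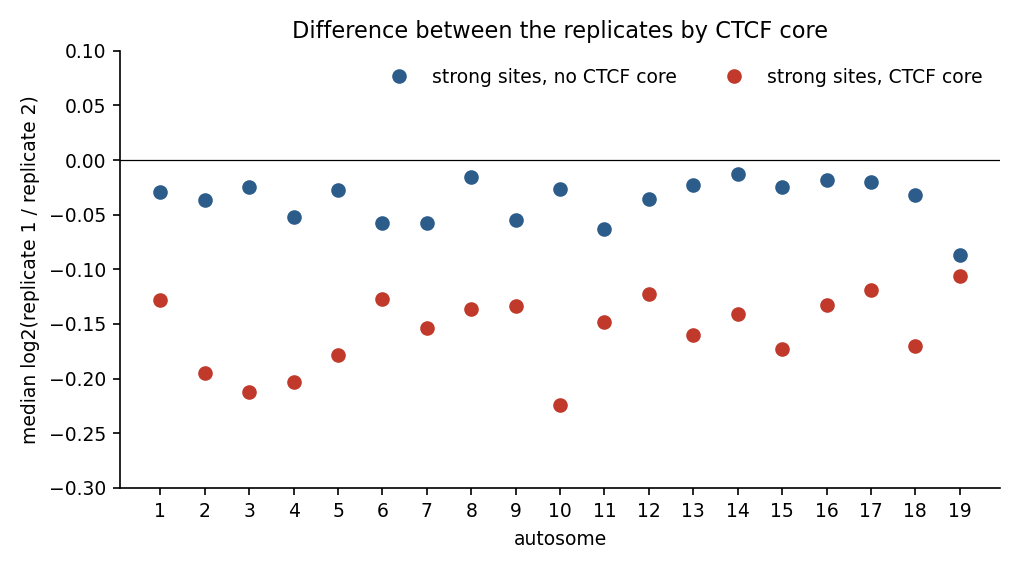
Median log2 ratio of replicate 1 to replicate 2 (vertical axis) on each autosome (horizontal axis) for strong sites with and without a CTCF core. On all 19 autosomes the point with a core lies below the point without.

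The 12 strongest members by mean signal had values between 224 and 261 in replicate 1 and between 266 and 297 in replicate 2, and all 12 were higher in replicate 2. The highest was an exonic site at chr14:21987941-21988090, 1585 bp from a start of Zfp503, a zinc-finger corepressor gene, with 261 and 293. Next came sites near Trappc9 (chr15:73067501-73067670, 251 and 297), Foxo3 (chr10:42277721-42277870, 255 and 276), Zfp395 (chr14:65343841-65344030, 239 and 292) and Gm37230 (chr9:108201241-108201390, 247 and 277). Foxo3 encodes a forkhead factor that insulin signalling keeps out of the nucleus. Then followed an intronic site of Dlg4, a synaptic scaffold gene (246 and 275), and intergenic sites near Irf2bp2 (228 and 288), AC125101.1 (246 and 267), Rpl30-ps6 (231 and 280), Cpeb4 (224 and 284), Ssc4d (238 and 266) and Gm49539 (234 and 269). None of the 12 held a CTCF core, 8 were CpG-rich, and 4 lay within 1 kb of a RefSeq start. Those 4 were near Zfp503 (666 bp), Pkd2l1 (52 bp), Cpeb4 (144 bp) and D130051D11Rik (60 bp).

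The members that differed most between replicates favoured replicate 2. In replicates 1 and 2, signals were 63.8 and 162 near AW112010, 105 and 255 near Ifna13, 70.3 and 156 near Gm48099, 79.5 and 171 near Gm5981 and 89.2 and 181 near Gm28590. The largest differences the other way were smaller, with 101 and 63.5 near Frg1, 96.7 and 61.5 near AC151293.1, 95.1 and 61.3 near Gm43676, 103 and 66.8 near Gm10389 and 95.1 and 62.3 near D7Ertd443e. Of the 5 that favoured replicate 2, 3 held 36-base words that occur elsewhere in the genome, and of the 5 that favoured replicate 1, 0 did. Over all strong sites, 8437 (98.6%) consisted of 36-base words, the stated read length, that occur once, and 4 had at least 50% of their words repeated.

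Near kidney genes, strong sites were more often present than near protein-coding genes at large. A strong site lay within 50 kb of a TSS for 8529 of 20807 autosomal protein-coding genes (41%) and for 58 of 91 genes in 9 lists of kidney cell types (63.7%, interval 53.0 to 73.6). For 26 genes of cells that can be carried along it was 13 (50%), and for 24 genes of liver, neuron and muscle 9 (37.5%). The next tier gave 40.7% of all genes and 52.7% of the kidney genes. The median window searched was 104 kb for the kidney genes and 103 kb for all. With the lowest signal at 80 the kidney share was 35.2% against 22.0% of all genes, so the level depends on the limit. These shares are set side by side and were not tested.

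By cell type, 11 of 12 stroma genes had a strong site (91.7%), 10 of 12 of the proximal tubule (83.3%), 6 of 8 of nephron progenitors and 9 of 12 of the ureteric bud and collecting duct (75% each), and 6 of 9 of the early nephron (66.7%). The shares were 6 of 11 for endothelium (54.5%), 5 of 10 for podocytes (50%), 3 of 7 for intercalated cells (42.9%) and 2 of 10 for the loop of Henle and distal tubule (20%). Among cells carried along, 6 of 8 leukocyte genes (75%), 3 of 6 erythroid genes (50%), 3 of 5 nerve genes (60%) and 1 of 7 adrenal cortex genes (14.3%) had a site. Of the other tissues, it was 4 of 8 for neuron, 4 of 8 for muscle (50% each) and 1 of 8 for liver (12.5%). Leukocyte genes thus had a share like that of nephron progenitors, in lists too short to order.

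In nephron progenitors, Meox1, a homeobox gene, had 3 sites, the strongest 7132 bp from a start with signals of 116 and 81.6, and Sall1, which encodes a zinc-finger repressor needed for kidney outgrowth, had 2 intronic ones (72.1 and 66.3, 83.8 and 94.9). In the list of the early nephron, Pax2, a paired-box gene of the nephron and ureteric bud, had 2 sites. The one at chr19:44753561-44753710, 2409 bp from a start, had 95.5 and 95.6 and overlaps an element that RefSeq records as a proximal Pax2 enhancer active in Wolffian duct and kidney. Ccnd1, a cyclin gene of dividing cells, had 1 site with 166 and 196.

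In differentiated cells, Synpo, which encodes an actin-binding protein of podocyte foot processes, had 6 sites, between 64.1 and 101 in replicate 1 and between 65.9 and 119 in replicate 2, of which 1 held a CTCF core. Foxc2, a forkhead gene of podocytes and vessels, had 5, of which 3 lay between 8905 and 9515 bp from a start with 78.8, 117 and 128 in replicate 1 and 93.3, 131 and 138 in replicate 2. Pck1, which encodes the gluconeogenic enzyme of the proximal tubule, had 5, the strongest at 125 and 121, and the fifth, with 64.5 and 80.7, held a CTCF core. Fbp1, also of gluconeogenesis, had 2 (65.7 and 67.8, 78.9 and 68.4). Kcnj1, the apical potassium channel gene of the loop of Henle, had 2 (95.1 and 70.8, 94.8 and 96.1). Slc12a3, the thiazide-sensitive cotransporter gene, had 2 intronic ones (64.2 and 70.2, 64.8 and 84.4), the first with a CTCF core. For intercalated cells, Slc4a1, the anion exchanger gene, had 2, and Atp6v0d2, a proton pump subunit gene, had 1 (82.7 and 81.8) with a CTCF core.

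Hoxb7, a homeobox gene of the ureteric bud, had the most in these lists, 9 sites without a CTCF core, between 66.3 and 184 in replicate 1 and between 72.6 and 195 in replicate 2. Krt8, an epithelial keratin gene, had 4, the strongest at 178 and 188. In stroma, Meis1 and Nr2f2, both transcription factor genes, had 4 each, the strongest at 145 and 166 and at 213 and 231. Pecam1, an endothelial adhesion gene, had 4, the strongest at 83.7 and 78.1, and Flt1, a VEGF receptor gene, had 2. Of 8 autosomal genes of insulators and cohesin, 5 (62.5%) had a strong site. Ctcf had 4, of which 2 held a CTCF core (154 and 163, 81.6 and 96.1), and Smc3, a cohesin gene, had 3, of which 1 did.

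Genes of other cells also had strong sites in this tissue. Spi1, which encodes the myeloid factor PU.1, had 2 (90.8 and 136.8, 114 and 125), and Adgre1, the macrophage gene for F4/80, had 2 (62.0 and 61.0, 75.8 and 102). Hba-a1, an alpha globin gene, had 1 at 41025 bp (75.4 and 80.7). Cyp11a1, of adrenal steroid synthesis, had 1 (76.3 and 72.5), and Chga, of chromaffin cells, had 2 (60.9 and 78.3, 66.5 and 61.2). Among genes of other tissues, Apoa1, a liver apolipoprotein gene, had 3, the strongest at 104 and 132, and Slc17a7, a glutamate transporter gene of neurons, had 4, the strongest at 144 and 156. Rbfox3, a neuronal splicing gene, had 3, Tnnt3, a muscle troponin gene, had 5, and Ckm, the muscle creatine kinase gene, had 1 with a CTCF core (70.8 and 79.5). A site within 50 kb need not act on the gene it is counted for. The rule bounds the signals of all strong sites in both replicates. That these signals share a range with those near kidney genes is therefore not read as a result.

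The genes with the most strong sites within 50 kb were not kidney markers. Sfi1 had 17 and its neighbour Eif4enif1 14, all of them also counted for Sfi1. Tmem107 had 13, Aurkb, Borcs6 and Gse1 12 each, and Ctc1, Ezh1, Hoxc5 and Vamp2 11 each, while 449 genes (2.16%) had 5 or more. None of the sites counted for these 10 genes held a CTCF core. By gene body, the gene model Gm20388 held 73 in 4435 kb, Fgfr2 18 in an annotated span of 2961 kb, Gse1 and Sfi1 16 each, Lrmda and Maml3 14 each, Arhgap26 and Rad51b 12 each, Ttc28 10, and Msi2 8, tied with Nav2, Rbpms and Syn3. The span of Gm20388 makes sites at other genes count as intronic, those at Foxc2 among them.

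The Sfi1 sites differed from the others in the second deposited measure. Of the strong sites, 18 had a −log10 p under 30 in a replicate, and 16 of these had Sfi1 as nearest protein-coding gene (chr11:3143321-3195650). They were singled out after their values were seen. Replicate 1 gave them 60.3 to 78.4 and replicate 2 gave 60.3 to 81.5, with −log10 p from 5.06 to 29.9 and from 4.77 to 42.2. The median over all strong sites was 124 in replicate 1 and 129 in replicate 2, and 203 of them stood at the highest value of the scale in both. The remaining 2 lay at Hoxa9 and Hoxa11os.

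The sites at Tmem107, Aurkb, Borcs6, Ctc1 and Vamp2 are 17 sites of 1 window (chr11:68982761-69124330), counted again for each gene. Of these, 10 lie over transfer RNA (tRNA) genes of the RefSeq annotation, while the nearest GENCODE M21 start is over 1 kb away by the rule. RNA polymerase III transcribes tRNA genes from promoters inside the gene, where the factor TFIIIC binds, and TFIIIC sites can act as insulators in yeast and mammals. In all, 56 strong sites overlapped a tRNA gene (0.655%), on 12 chromosomes and 20 of them on chromosome 11, against 0.281% of the next tier, 0.0455% of weaker distal sites and 0.0920% of all shared sites. They covered 56 of the 386 autosomal tRNA genes (14.5%), and any shared site covered 179 (46.4%). Signals lay between 61.1 and 146 in replicate 1 (median 76.0) and between 60.1 and 187 in replicate 2 (median 84.8), and 45 of 56 were higher in replicate 2. The highest, at a threonine tRNA gene (chr7:35234821-35234970), had 146 and 187. The TFIIIC B box word GTTCGANNC was in 26 strong sites (0.304%), 18 of them over tRNA genes. It was in 0.210% of the next tier, 0.122% of weaker distal sites, 0.172% of all shared sites and 1.30% of the flanks. The flanks, unlike the strong sites, were not filtered for repeats, so their share is not a like comparison. A CTCF core was in 1 of the 56. Of the 56, 32 held 36-base words that occur elsewhere, against 119 of 8556 (1.39%) among all strong sites.

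Enhancers that RefSeq records from experiments overlapped 123 strong sites (1.44%), against 75 of the next tier (0.877%) and 0.520% of weaker distal sites. Of these 123, 118 lay over elements of the VISTA collection, which are tested in transgenic mouse embryos and of which 0 are annotated as active in kidney. Strong sites lay in 99 of 617 autosomal VISTA elements. By annotated activity they lay in 36 of 173 active in limb (20.8%), 28 of 159 in heart (17.6%) and 19 of 166 in forebrain (11.4%). Among the smaller groups it was 14 of 31 in somite (45.2%) and 7 of 16 in blood vessels (43.8%). Shares were 13.9% for midbrain, 15% for hindbrain, 10.3% for neural tube, 15.7% for facial mesenchyme and 17.3% for branchial arch. Of the 5 elements active in genital tubercle and the 4 in liver, 0 held a strong site. With 99 of 617 over all elements, these groups are too small for that to be read as a result. The strongest of the 123 sites was the Irf2bp2 site among the 12 above, in an element active in forebrain. Of 7 enhancer-blocking elements in RefSeq, 5 held a shared site and 0 a strong distal one. These elements overlapped 4 of the 194662 shared sites. Strong sites were 4.40% of shared sites, so the 0 is not read as a result.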

How the data were processed

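DNase-seq was done on newborn mouse kidney in 2 replicates of 1 group. The authors deposited 1 peak list per replicate, made from 36-nt reads aligned to mm10, per the file headers. Column 7 is the deposited signal of each peak, and column 8 its deposited −log10 p. The sources used here name no aligner, peak caller, scaling or depth, so no precision per site can be given.

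Overlapping peaks (at least 1 bp) of both replicates were merged into a site, which took the highest signal in each replicate. Distances used GENCODE M21 starts, and masking, words and RefSeq features used GRCm38, the same build, beyond whose chromosome ends no peak reached. Exact matches to motifs were sought in 150 bp around the centre, reading both strands. Beside those spelled in the results, the longer words were RFX (GTTGCCATG), ETS (CCGGAAGT), PU.1 (GAGGAAGT), MAZ (GGGGAGGGG), ZNF143 (ACTACAATT), CREB (TGACGTCA), PAX2/8 (GTCACGCNT), GRHL (AACCGGTT) and MEF2 (TATTTATAG), and REST, NFI and the steroid receptor are given by name. The word CATTCCA stood for TEAD, CCAATCA for the NFY complex, TTTATGG for the posterior HOX proteins, and AGATAAG for zinc-finger factors of the GATA family. Forkhead (FOX) proteins were sought by TGTTTAC, the Wnt effectors TCF and LEF by CTTTGAT, and SOX proteins by CCATTGT. The ETS and PU.1 words share GGAAGT. Flanking windows were not filtered for repeats. A gene counted a site within 50 kb of any of its starts. X-linked genes of the lists were left out.

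Named were the 12 strongest members, the 5 most extreme ratios each way, the 3 members nearest each limit, the 10 genes with most members nearby or within, and up to 2 genes per list, of which some are not reported here. The members, lists, motifs and rules were chosen with earlier results of these data known. RefSeq features were added after the values were seen. The core search found 599 of 600 cores planted in simulated sites. Intervals are exact binomial and cover counting error only. No test was run. Versions were matplotlib 3.10.9, numba 0.67.0, scipy 1.17.1, pandas 2.3.3, numpy 2.4.6 and Python 3.11.15.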

Additional observations from a re-analysis of the deposited data

How the results depend on the processing

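The count stayed within 1.5 times its value under 8 of 10 alternatives. The CTCF share moved by less than its spread under 10 of 12 and the share within 1.5-fold under 8 of 9, while the median gap did so under 2 of 10 and the kidney list share under 3 of 11. The SD of 2.74 for the CTCF share comes from the 2 runs on 1 replicate, which are among the 12. Each result has its own spread, so these counts do not rank the results by robustness. The gap, for example, counted as moved at 80430 bp against 78980 bp. With the lowest signal at 80 there were 3342 sites, a median TSS distance of 7957 bp, 41.4% in introns, a median gap of 185130 bp, 24.8% convergent pairs and 35.2% of kidney list genes with a site. With the lowest signal at 50 these were 13492 sites, 45.5% in introns, 52950 bp and 71.4% of kidney list genes. At that limit 51.9% of all protein-coding autosomal genes had a site, and 98.9% of sites lay within 1.5-fold. Over 2 kb from every TSS, the values were 11329 bp to a TSS, 43.1% in introns, a gap of 95640 bp, 26.6% convergent and 59.3% of kidney list genes. Under 25% soft-masked, the gap was 87575 bp, 26.6% of pairs were convergent and 62.6% of kidney list genes had a site. An overlap of at least 75 bp gave a gap of 80430 bp. With at most 1 mismatch, 36.7% of sites held a core and 26.8% of pairs were convergent, and with the weight matrix 35.6% and 26.4%. Protein-coding starts only gave 16044.5 bp, and a window of 25 kb 50.5% of kidney list genes against 27.5% of all genes. Kidney list shares under the remaining alternatives are given without the share of all genes. Without 1 replicate, counts were 10529 to 10815 sites, CTCF shares 12.98% to 16.9%, TSS distances 9064 to 9883 bp, intronic shares 44.2% to 45.2%, gaps 65540 to 66070 bp, convergent shares 25.9% to 26.2% and kidney list shares 67.0% to 68.1%. Chosen after seeing the data, a distance over 1 kb from every RefSeq start as well gave 44.9% in introns, a gap of 89250 bp and 60.4% of kidney list genes. Gaps narrow where the alternative keeps more sites. For the other changes the cause was not tested. No paired analysis was possible because there is 1 group.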

Other observations

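Above the upper limit lay 24 distal sites in unique sequence with a signal over 300 in a replicate. All 24 were higher in replicate 2, with a median log2 ratio of -0.38, and none held a CTCF core. Of them, 14 (58.3%) held 36-base words that occur elsewhere in the genome, against 1.39% of the strong sites. The highest, near Gm10800 on chromosome 2, had 623 in replicate 1 and 1310 in replicate 2. The 4 strong sites with at least 50% repeated words lay near Gm43980 (85.5 and 142), Gm45677 (98.3 and 91.0), Mir6356 (195 and 255.5) and Prpf19 (95.7 and 91.4).

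A further 4103 unique distal sites reached 60 in 1 replicate and not in the other, 1892 in replicate 1 and 2211 in replicate 2.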
